A study of Rattus norvegicus with 24 samples.

Results

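The mitochondrial genome encodes a small set of hydrophobic core subunits of the respiratory chain and of ATP synthase. The data below follow 10 of these genes, Nd1, Nd2, Nd4, Nd5, Nd6, Cytb, Cox1, Cox2, Cox3 and Atp6, in rat hippocampus. They were chosen by name and Ensembl identifier and not by a rule on their values, though earlier results of these data were known. They make up 10 of the 32883 gene rows of the count table. All 10 passed the filter on low counts, as did 14838 genes in all. The pairing of identifier and name came with the choice of the genes and could not be checked against a table here.

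The tissue was dissected, snap-frozen hippocampus of male Sprague-Dawley rats from a study of memory formation enhanced by glucocorticoids. Each of the 24 RNA-seq libraries was either trained or not trained and received either vehicle or corticosterone, the main glucocorticoid of rats. The groups were untrained with vehicle (n = 7), untrained with corticosterone (n = 6), trained with vehicle (n = 5) and trained with corticosterone (n = 6). Corticosterone against vehicle asks how the hormone altered the transcriptome, and trained against untrained asks the same of the learning task. The labels name neither the task, the dose, the time of dissection nor a batch. Whether the libraries of a group came from different rats is not stated, and the tests therefore weigh differences against a spread that may in part be technical. Libraries are named below by their group and the submitters' sample number. The column of untrained vehicle 41 stands in the deposited table directly after those of the trained vehicle group. It was analysed as labelled, and any doubt about it bears on both vehicle groups. Without it no member was called in any comparison. Among the 14829 genes then tested, 109 were called for corticosterone averaged over training and 0 for training averaged over treatment. For training under vehicle the members' median log2 difference was 0.05 in place of 0.03.

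Both strands of the mitochondrial genome are copied into long transcripts that span many genes and are then cut into separate RNAs, so the genes of a strand begin as parts of the same transcript. Of the 10 genes, 9 lie on the heavy strand and 1, Nd6, is read from the opposite light strand. The encoded subunits sit in complex I (NADH dehydrogenase, the Nd genes), complex III (Cytb), complex IV (cytochrome c oxidase, the Cox genes) and complex V (ATP synthase, Atp6). They are assembled with a larger number of subunits encoded in the nucleus. In the brain the chain supplies most of the ATP that neurons spend on ion pumping and synaptic transmission.

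Reads in genes numbered from 13760331 to 16765088 per library. Reads aligned to several places took 12.5 to 13.1% of each column, and reads shared by overlapping genes took 0.518 to 0.637%; neither kind was counted in a gene row. Levels are given as CPM, the read count of a gene scaled to the reads in tested genes of its library and to that library's TMM factor. This factor, estimated by edgeR for each library, ran from 0.976 in untrained corticosterone 4 to 1.03 in untrained vehicle 17. Shares of reads carry no such factor. On the first principal component of log2 CPM, 8 libraries stood apart, with scores above those of the other 16. Of these 8, 6 had received corticosterone (3 untrained, 3 trained) and 2 had received vehicle (untrained vehicle 17 and trained vehicle 5). The row with the largest loading on that component stood at 1748 to 4674 CPM in the 8 libraries and at 5.70 to 458 CPM in the other 16. For corticosterone against vehicle averaged over training, each gene is given below with and without these libraries. In bulk tissue, fewer cells of a type and less RNA per cell cannot be told apart. Markers of hippocampal cell types could not be looked up, because the table gives identifiers without symbols.

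Together the 10 genes held 8.18% ± 0.67 (SD, n = 24) of the reads in genes. The share ran from 6.81% in trained corticosterone 40 to 9.47% in untrained vehicle 7. Of the 10 most abundant rows of the whole table, 8 belonged to the set, at ranks 1 to 7 and 9. The other two members, Nd4 and Nd6, ranked far lower, at 1839 and 5865.

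In untrained vehicle libraries the summed share was 7.25% at the lowest, 8.18% at the median and 9.47% at the highest, with a mean of 8.27% ± 0.77 (SD, n = 7). Untrained corticosterone libraries spanned 7.13% to 9.07% around a median of 8.13%, with a mean of 8.17% ± 0.69 (SD, n = 6). These groups overlapped over nearly their whole ranges. The 5 trained vehicle libraries held 8.40%, 9.11%, 8.75%, 8.09% and 7.56%, with a mean of 8.38% ± 0.60 (SD, n = 5). Trained corticosterone libraries ran from 6.81% through a median of 7.94% to 8.97%, with a mean of 7.92% ± 0.69 (SD, n = 6). Trained corticosterone 40 was low and trained corticosterone 28 was high, and the others lay close together between them. Over both training states the mean share was 8.32% ± 0.67 (SD) with vehicle and 8.05% ± 0.67 (SD) with corticosterone, so the difference of -0.27 percentage points was smaller than the spread within either treatment. No p is given for this sum, since the set was chosen with earlier results of these data known.

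**Figure D1:**
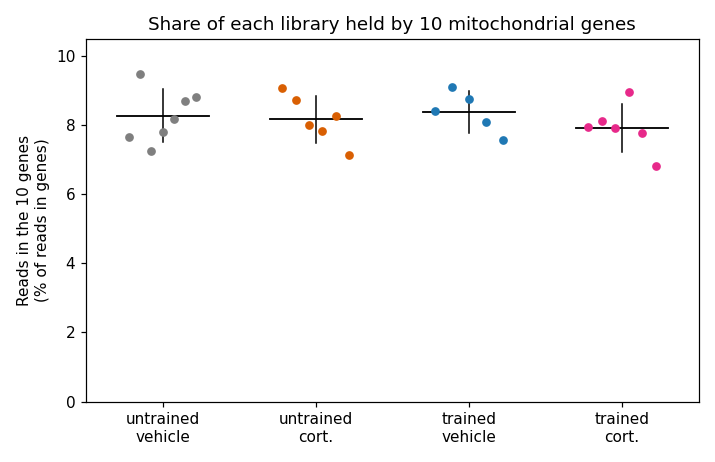
Reads in the 10 mitochondrial genes as a percentage of reads in genes (vertical axis) for the 4 groups (horizontal axis); each point is 1 library, the horizontal bar is the group mean and the vertical bar is ± 1 SD. Group means lie between 7.92% and 8.38%, and all 4 groups overlap.

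The summed share was lower in the 8 libraries that stood apart. There it ran from 6.81% to 8.40%, with a mean of 7.70% ± 0.577 (SD, n = 8), against 7.56% to 9.47% and a mean of 8.42% ± 0.590 (SD, n = 16) in the others. Most of the 8 lay below most of the 16, but the ranges overlapped. Among the 16 others, the mean share was 8.44% with corticosterone (n = 6) and 8.41% with vehicle (n = 10), so the lower mean with corticosterone was not seen among them. Of the 10 genes, 9 had a lower mean CPM in the 8 libraries than in the 16, by 6.40% for Cox1 up to 13.6% for Nd2 and Nd4, while the mean of Nd6 was 6.70% higher. How large a share of all genes was also lower in the 8 libraries was not counted, so the drop cannot be called particular to the members. These libraries were set apart on all genes, the members included, so the values are a description without a test. The part that this component plays in the mitochondrial values was not tested.

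**Figure D2:**
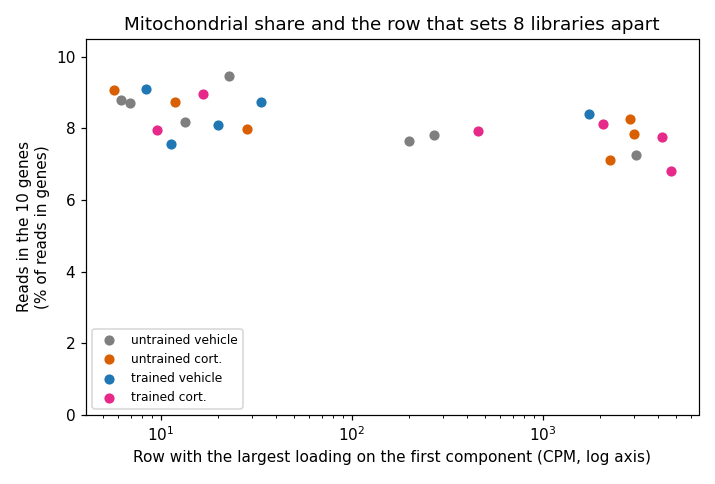
Percentage of reads in genes held by the 10 mitochondrial genes (vertical axis) against the CPM of the row with the largest loading on the first principal component (horizontal log axis); each point is 1 library, coloured by group. The 8 libraries at 1748 CPM or more hold 6.81 to 8.40% and the other 16 hold 7.56 to 9.47%.

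Within the reads of the 10 genes, the makeup by complex was nearly constant. Complex IV took 47.5% ± 1.19 (SD, n = 24), complex I 27.7% ± 1.12, complex III 12.2% ± 0.455 and complex V 12.7% ± 0.267. Untrained vehicle 17 was the exception at both ends, with the highest share of complex IV, 51.2%, and the lowest share of complex I, 24.5%. These are shares of counted reads, and Nd4, with few reads in its row, adds little to that of complex I. Group means of complex IV ran from 47.0% to 48.0%, a span below its SD between libraries. Those of complex V ran from 12.6% to 12.9%, a span about as large as its SD.

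Counted in reads, Cox1 stood first in every library, with a mean of 351435 reads against 160580.0 for Atp6, the next gene. Read counts are not levels per length, and no gene lengths were at hand, so the order is one of reads. After Cox1 came Atp6, Cytb (153624 reads), Nd2 (146028), Cox3 (136262), Nd1 (122902), Cox2 (111068) and Nd5 (78859). Atp6 was above Cytb in 21 of 24 libraries, Cytb above Nd2 in 18 and Nd2 above Cox3 in 19, so these neighbours changed places between libraries. Cox3 was above Nd1 in all 24 libraries, Nd1 above Cox2 in 23, and Cox2 above Nd5 in all 24. A wide gap then followed: Nd4 had a mean of 1781 reads, and the reads of Nd5 exceeded those of Nd4 44.3 times on average (range 36.7 to 56.4). Nd6 was lowest in every library, with a mean of 507 reads.

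Complex I passes electrons from NADH to ubiquinone and pumps protons. Its Nd1 subunit (ENSRNOG00000030644) lies at the junction of the peripheral and membrane arms, next to the quinone site. In untrained vehicle libraries Nd1 ran from 5967 through a median of 8288 to 9739 CPM, and in untrained corticosterone libraries from 6514 through 7788 to 9325 CPM. The 5 trained vehicle libraries stood at 7807, 8775, 8530.1, 8113 and 7122 CPM. Trained corticosterone libraries ran from 6782 through 7729.9 to 9218 CPM. The lowest library of all, untrained vehicle 17, and the highest, untrained vehicle 7, belonged to the same group, and every group overlapped every other. Corticosterone minus vehicle, averaged over training, was -0.03 on the log2 scale (SE 0.07, 95% interval -0.17 to 0.11), with an edgeR adjusted p of 0.96. Without the 8 libraries that stood apart it was 0.02.

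Nd2 (ENSRNOG00000031033) encodes a proton-pumping subunit of the membrane arm. It ran from 7148 through 9636 to 11490.1 CPM in untrained vehicle and from 7568 through 8867 to 11993 CPM in untrained corticosterone libraries. The trained vehicle libraries held Nd2 at 9892, 11177, 10303, 9953 and 8959 CPM, and trained corticosterone libraries ran from 7204 through 9497 to 10770.3 CPM. Trained vehicle had the highest mean, 10057 CPM, but 4 of its 5 libraries lay inside the range of trained corticosterone. Of the 10 genes, Nd2 had the lowest interaction value, meaning the effect of corticosterone in trained minus that in untrained rats: -0.14 (SE 0.16, 95% interval -0.47 to 0.20), with an edgeR adjusted p of 0.97. Without untrained corticosterone 4 it was -0.05, level with Nd4. Corticosterone minus vehicle averaged over training was -0.05 for Nd2 (SE 0.08, 95% interval -0.22 to 0.11; edgeR adjusted p = 0.935), and 0.02 without the 8 libraries.

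Nd5 (ENSRNOG00000029971) encodes the proton-pumping subunit at the far end of the membrane arm. Its values ran from 4117 through 5214 to 5946 CPM in untrained vehicle, from 4349 through 5122 to 6246 CPM in untrained corticosterone and from 4223 through 4797 to 6127 CPM in trained corticosterone libraries. The trained vehicle libraries stood at 5426, 6062, 5518, 5019 and 4318 CPM. High and low libraries occurred in each group, and the values overlapped throughout. With corticosterone averaged over training, the difference was -0.04 (SE 0.07, 95% interval -0.19 to 0.11; edgeR adjusted p = 0.955), and 0.06 without the 8 libraries.

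Nd4 (ENSRNOG00000029707) encodes another proton-pumping subunit, and its reads were few beside those of the neighbouring complex I genes. It ran from 88.7 through 119 to 141 CPM in untrained vehicle and from 91.2 through 112 to 138 CPM in untrained corticosterone libraries. Trained vehicle libraries stood at 126, 131, 132, 133 and 102 CPM, and trained corticosterone libraries ran from 95.9 through 108 to 119 CPM. In trained rats 4 of the 5 vehicle libraries lay above every corticosterone library, and trained vehicle 35 lay inside their range. Of the 10 genes, Nd4 had the most negative value with corticosterone: -0.14 averaged over training (SE 0.07, 95% interval -0.29 to 0.01, unadjusted p = 0.0711; edgeR adjusted p = 0.589). In trained rats alone it was -0.20 (SE 0.11, 95% interval -0.43 to 0.02; edgeR adjusted p = 0.729). Neither value passed the test. The value averaged over training stayed negative in each alternative run, from -0.18 when 1 library was left out to -0.07 at the other end, and was -0.09 without the 8 libraries. Since reads that align to several places were not counted, the row holds only reads unique to it; what part this plays in its low count was not tested.

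Nd6 (ENSRNOG00000029042) encodes a membrane-arm subunit of complex I and is the light-strand gene of the set. In untrained vehicle libraries it ran from 24.6 through 28.3 to 46.8 CPM, and in untrained corticosterone libraries from 26.3 through 28.2 to 44.9 CPM. With training and vehicle the libraries stood at 50.2, 38.6, 30.3, 33.4 and 24.2 CPM, and trained corticosterone libraries ran from 27.8 through 34.1 to 41.5 CPM. The lowest library, trained vehicle 35, and the highest, trained vehicle 5, shared a group. Trained minus untrained, averaged over treatment, was 0.14 (SE 0.12, 95% interval -0.11 to 0.39; edgeR adjusted p = 0.999), the value farthest from 0 that training gave among the 10 genes. Without trained vehicle 5, 1 of the 8 libraries that stood apart, it was 0.06, and the value under vehicle alone went from 0.14 to -0.02. Corticosterone minus vehicle averaged over training was -0.06 for Nd6 with all libraries and without the 8, and 0.01 without trained vehicle 5 alone. The library preparation kept strand, but no source used here gives the strand setting of the counting step, and reads from the heavy strand cannot be separated from those of Nd6.

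**Figure D3:**
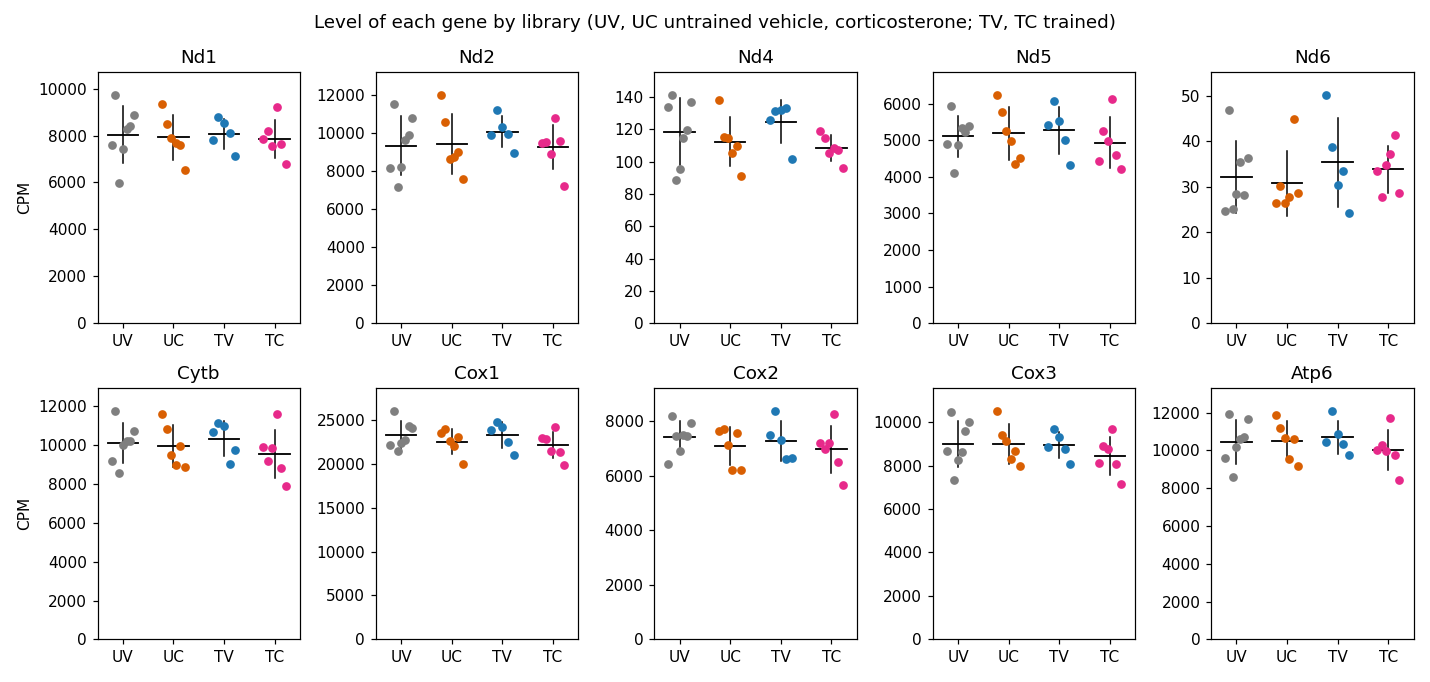
CPM of each of the 10 genes (vertical axes from 0, a scale for each gene) in the 4 groups (UV and UC, untrained with vehicle and corticosterone; TV and TC, trained); each point is 1 library, the horizontal bar is the group mean and the vertical bar is ± 1 SD. No gene has a pair of groups whose points are fully separate.

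Complex III hands electrons from ubiquinol to cytochrome c, and Cytb (ENSRNOG00000031766) is its heme-bearing core. Cytb ran from 8575 through 10201 to 11753 CPM in untrained vehicle and from 8886 through 9718 to 11612 CPM in untrained corticosterone libraries. Trained vehicle libraries stood at 10678, 11142, 10998, 9041 and 9757 CPM, and trained corticosterone libraries ran from 7879 through 9505 to 11614 CPM. The highest and the lowest of the trained libraries both had corticosterone. The difference averaged over training was -0.07 (SE 0.06, 95% interval -0.20 to 0.06; edgeR adjusted p = 0.851), and 0.03 without the 8 libraries.

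Complex IV passes electrons to oxygen. Cox1 (ENSRNOG00000034234) is its catalytic core, with the heme and copper centre where oxygen is reduced. It ran from 21454 through 22708 to 26014 CPM in untrained vehicle, from 19959 through 22798 to 23973 CPM in untrained corticosterone and from 19904 through 22172 to 24171 CPM in trained corticosterone libraries. In trained vehicle libraries Cox1 stood at 23828, 24805, 24191, 22486 and 21019.9 CPM. The lowest library of each corticosterone group lay below every vehicle library, but most values lay in a range common to all groups. Cox1 was measured most tightly: with corticosterone the difference was -0.06 (SE 0.04, 95% interval -0.15 to 0.03; edgeR adjusted p = 0.755), an interval that spans a change of -9.97% to 2.08%. Without the 8 libraries it was -0.02.

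Cox2 (ENSRNOG00000030371) carries the copper centre that takes electrons from cytochrome c. It ran from 6429.9 through 7471 to 8209 CPM in untrained vehicle and from 6207 through 7366 to 7712 CPM in untrained corticosterone libraries. Trained vehicle libraries stood at 7507, 8386, 7302, 6609.6 and 6655 CPM, and trained corticosterone libraries ran from 5681 through 7094 to 8291 CPM. The highest library of all was trained vehicle 10 and the lowest trained corticosterone 40, and the groups overlapped. With corticosterone the difference was -0.06 (SE 0.06, 95% interval -0.19 to 0.06; edgeR adjusted p = 0.847), and 0.04 without the 8 libraries.

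Cox3 (ENSRNOG00000030700), a structural core subunit of the same complex, ran from 7332 through 8660.1 to 10441 CPM in untrained vehicle and from 7956 through 8899 to 10509 CPM in untrained corticosterone libraries. The 5 trained vehicle values were 8864, 9676, 9303, 8749.7 and 8063 CPM, and trained corticosterone libraries ran from 7148 through 8433 to 9661 CPM. Means were nearly equal in the untrained groups, 8985 CPM with vehicle and 8993 CPM with corticosterone. Over both training states the difference with corticosterone was -0.04 (SE 0.06, 95% interval -0.16 to 0.08; edgeR adjusted p = 0.931), and 0.02 without the 8 libraries.

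ATP synthase uses the proton gradient to make ATP, and Atp6 (ENSRNOG00000031979) forms part of its proton path. Atp6 ran from 8585 through 10579.9 to 11923 CPM in untrained vehicle and from 9151 through 10645 to 11899.9 CPM in untrained corticosterone libraries. Under training and vehicle the values were 10433, 12089, 10870.2, 10344 and 9737 CPM, and trained corticosterone libraries ran from 8419.6 through 10002 to 11692 CPM. The trained vehicle values lay mostly inside the range of the trained corticosterone libraries, with trained vehicle 10 above it. With corticosterone the difference was -0.04 (SE 0.06, 95% interval -0.17 to 0.08; edgeR adjusted p = 0.922), and 0.02 without the 8 libraries.

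None of the 10 genes passed edgeR's quasi-likelihood test at a Benjamini-Hochberg adjusted p under 0.05 for corticosterone against vehicle averaged over training. Among all 14838 genes 138 did, or 0.93%. At an unadjusted p under 0.05 the members again numbered 0, against 9.25% of all genes. Of the 10, limma-voom and DESeq2 called 0 as well, against 130 of 14838 and 180 of 15543 genes. All 10 values were below 0, from -0.14 for Nd4 to -0.03 for Nd1, with a median of -0.06, while the median over all genes tested was 0.00 and 51.5% of them were above 0. The 10 genes share libraries and transcripts, so the common sign is not 10 separate observations. The common sign was also not kept in every alternative. Without the 8 libraries that stood apart, 3 of the 10 were below 0 and the median was 0.02. With 1 surrogate variable in the fit, 5 were below 0 and the median was 0.01. What part the 8 libraries play in the sign was not tested. The size of the median moved both ways when 1 library was left out. It ran from -0.08 without trained corticosterone 28 to -0.03 without untrained vehicle 7 or trained corticosterone 40. No member had vehicle and corticosterone libraries that did not overlap, against 0.148% of all genes.

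Within untrained rats, corticosterone gave 4 values above 0 and 6 below, from -0.08 for Nd4 to 0.02 for Nd5, with a median of -0.02. edgeR called 0 of 10 members, against 0.357% of all genes (53), and 0.465% of all genes had libraries without overlap, with 0 members among them. Within trained rats all 10 values were below 0, from -0.20 for Nd4 to -0.04 for Nd1, with a median of -0.09. There edgeR called 0 of 10, against 0.162% of all genes (24), and 0 members had libraries without overlap, against 1.04% of all genes. At an unadjusted p under 0.05 the members numbered 0 in both. In untrained rats the balance of signs hung on single libraries, from 3 of 10 below 0 without untrained vehicle 7 to 10 of 10 without untrained vehicle 17, untrained corticosterone 4 or untrained corticosterone 9. In trained rats the median was -0.05 without trained vehicle 10 or trained corticosterone 40 and -0.14 without trained corticosterone 28. Without the 8 libraries, 3 of 10 values were below 0 in untrained rats (median 0.03) and 6 of 10 in trained rats (median -0.01).

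Whether the response to corticosterone differed with training was tested by the interaction. Its values ran from -0.14 for Nd2 to 0.00 for Nd6, with a median of -0.09, and 8 of 10 were below 0. Without the 8 libraries the median was -0.05 and Nd6 stood at 0.42 (edgeR adjusted p = 0.778). Single libraries moved the median as far, to -0.04 without untrained corticosterone 4 or trained corticosterone 40 and to -0.05 without untrained vehicle 17 or trained vehicle 10. Others moved it away from 0, farthest to -0.13 without untrained vehicle 7. edgeR called 0 of 10 members and 0% of all genes, and at an unadjusted p under 0.05 it found 0 members and 4.27% of all genes. The 95% intervals reached about 0.27 to either side at the median over the members, so differences of that size could not be told from 0.

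Training itself gave no called member. Averaged over treatment, 3 values were above 0 and 7 below, from -0.05 for Cox3 to 0.14 for Nd6, with a median of -0.01. Under vehicle 7 were above 0 and 3 below (median 0.03), and under corticosterone 1 was above 0, Nd6 at 0.14, and 9 below (median -0.04). In each of these 3 comparisons edgeR called 0% of all genes and 0 of the 10 members. The fits by limma-voom and DESeq2 also called 0 genes of all tested, and so 0 of the 10. Members at an unadjusted p under 0.05 numbered 0, against 3.27%, 2.28% and 6.09% of all genes in that order. Libraries without overlap were found for 0 members, against 0% of all genes averaged over treatment, 0.108% under vehicle and 0.128% under corticosterone. The balance of signs did not hold up when libraries were left out. Averaged over treatment, 1 of 10 was below 0 without trained corticosterone 40, 3 without untrained vehicle 7, and 4 without untrained corticosterone 4 or trained vehicle 35, with medians of 0.01. Under vehicle, 7 of 10 were below 0 without untrained vehicle 17 or trained vehicle 10, and 8 of 10 without the 8 libraries. In the other direction, 0 of 10 were below 0 without untrained vehicle 7 or trained vehicle 35. Under corticosterone, 5 of 10 were below 0 without untrained corticosterone 4 or trained corticosterone 40.

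**Figure D4:**
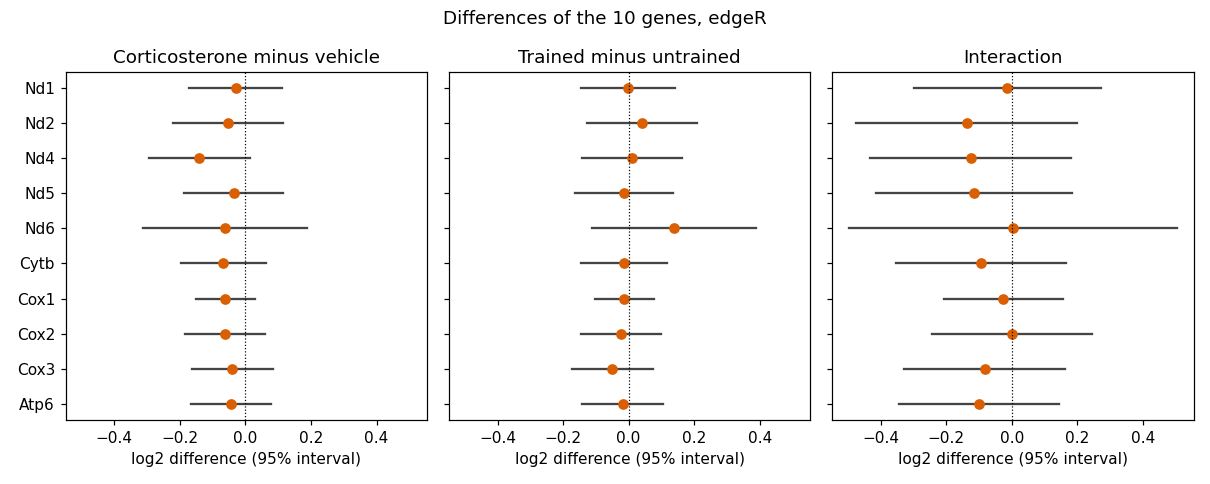
Difference in log2 expression (horizontal axis) of each of the 10 genes (vertical axis) for corticosterone minus vehicle, trained minus untrained and their interaction; points are edgeR estimates and lines are 95% intervals. Every interval includes 0, and the widest belong to Nd6.

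How precisely the members were measured differed by gene. The SD of log2 CPM within groups was lowest for Cox1, 0.096, and highest for Nd6, 0.312. Among the 92 other genes of the 100 most abundant the median was 0.089, and 41 of them were at or above the Cox1 value. Leaving out Nd4 and Nd6, the other members ran from 0.146 for Atp6 to 0.210 for Nd2. Each abundant mitochondrial gene thus varied more than the median of the other abundant genes, Cox1 only slightly. Counting error alone gives a CV of 4.44% for Nd6 and 2.37% for Nd4, and the CV of CPM over the 24 libraries was 22.1% and 13.5%. Counting error by this measure was thus smaller than the spread even for the gene with the fewest reads. What part depth plays in the spread was not tested.

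Much of the variation was shared between the genes. The CV of CPM was 9.64% for Atp6, but as a share of the reads of the 10 genes Atp6 varied by only 2.10%. Ratios between genes give the same picture: of the 45 pairs, Cox3 to Atp6 had the smallest SD of the log2 ratio within groups, 0.047, followed by Nd1 to Cox3 (0.062) and Nd1 to Atp6 (0.063). Pairs with Nd4, leaving out Nd6, ran from 0.109 to 0.186. All 9 pairs with Nd6 were looser than any other pair, at 0.270 to 0.314. Nd6 thus moved least with the rest. It also had the lowest Pearson correlation with the mean of the other 9 genes over the 24 libraries, 0.42, against 0.95 for Atp6. Nd6 is both the light-strand gene and the member with the fewest reads, and what sets it apart was not tested. Correlations here are descriptions, since the genes share libraries and total depth.

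**Figure D5:**
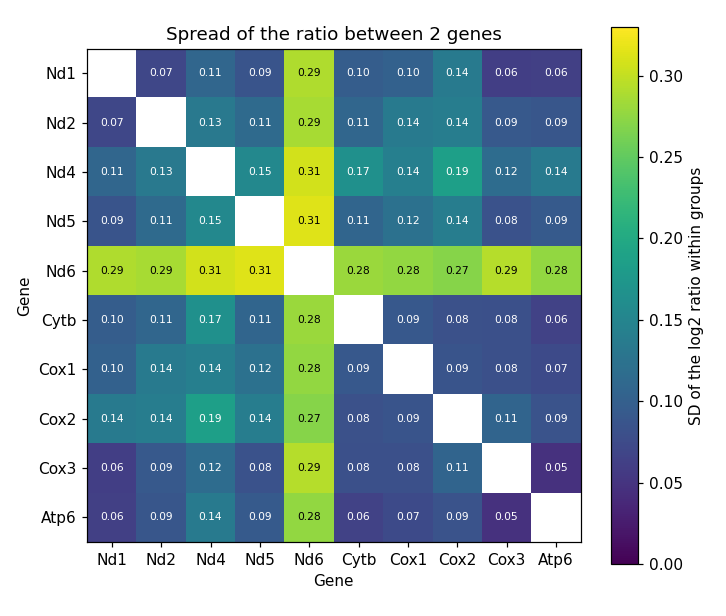
SD within groups of the log2 ratio between the counts of 2 genes (colour and printed value) for each of the 45 pairs of the 10 genes, with genes on both axes. The row and column of Nd6 hold the 9 largest values, 0.270 to 0.314, and Cox3 with Atp6 holds the smallest, 0.047.

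Outside the set, 13785 rows averaged 1 CPM or more. Those whose log2 CPM followed the mean of the 10 most closely over the 24 libraries were ENSRNOG00000033299 (Pearson r = 0.78, mean 605 CPM) and ENSRNOG00000033615 (r = 0.78, mean 485 CPM). With any 1 library left out, r stayed between 0.74 and 0.84 for the former and between 0.72 and 0.85 for the latter. The rows that ran most opposite were ENSRNOG00000003931 (r = -0.74, mean 16.5 CPM) and ENSRNOG00000011284 (r = -0.74, mean 2.75 CPM). None of these 4 rows is paired with a symbol in the sources used here, so they are given by identifier alone. They were picked as the extremes of many correlations and carry no test.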

How the data were processed

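Per the labels' protocols, mRNA was enriched from total RNA and made into stranded paired-end libraries. The submitters' processing notes name FastQC, MultiQC, STAR (2.7.0b), HTSeq (0.6.1) and build rn6. Which annotation was used, and whether counting took account of strand, is not given in the sources used here. The authors deposited raw counts of reads per gene for the 24 libraries in 1 table. Its 5 summary rows, 39.0% of a column on average, were left out. No column lacked a sample.

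Members and gene lists were chosen with earlier results of these data known. All 10 members are named, with the 2 rows most and the 2 least correlated with their mean log2 CPM (prior count 2). Other gene lists (further mitochondrial genes, nuclear subunits, glucocorticoid targets, cell type markers) could not be looked up: none of the 47357 genes of the reference table carries an Ensembl identifier or lies on the mitochondrial genome, so no sequence or gene length is given either.

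The main test was edgeR 4.0.16 (R 4.3.3), quasi-likelihood F-test, with filterByExpr, TMM factors and 1 model of the 4 groups, giving 7 comparisons. P-values were adjusted over all 14838 genes by Benjamini-Hochberg. Intervals are 95% and take the spread between libraries. The fit was tested on simulated data. Alternatives were limma-voom 3.58.1, DESeq2 1.42.0, other scalings and filters, 1 surrogate variable (sva 3.50.0), the sample number as a covariate, only the groups compared, each library left out, and, chosen after seeing the data, leaving out the 8 libraries apart on the first principal component.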

Additional observations from a re-analysis of the deposited data

Results flagged for a closer look

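Dixon's criterion was applied to 84 groups of values (each member's CPM, its share of member reads and the summed share, by group). Of these, 5 held a library far from the rest of its group, near the 1 in 20 that chance alone gives. Shares within a library depend on each other, so the flagged values are not separate observations. In untrained vehicle 17 the Nd1 share of member reads was 8.43%, below the next lowest of 9.49%, and the Cox2 share was 10.54%, above the next highest of 9.02%. In untrained corticosterone 29 the Nd5 share was 5.37%, with the next lowest at 6.36%, and Nd6 stood at 44.9 CPM, with the next highest at 30.1 CPM. Both libraries are among the 8 that stood apart on the first principal component. In trained vehicle 35, which is not among those 8, Nd4 stood at 102 CPM, with the next lowest at 126 CPM.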

How the results depend on the processing

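None of the 34 or 35 alternatives per comparison called a member; the lowest adjusted p of any member in any of them was 0.307 (Nd4, corticosterone against vehicle averaged over training). Signs of these uncalled values were less settled. For that comparison 1 of 240 values changed sign when 1 library was left out (Nd6, to 0.01 without trained vehicle 5) and 12 of 100 under the other alternatives. Within untrained rats 29 of 240 and 14 of 110 changed sign, within trained rats 2 and 5, for training averaged over treatment 33 and 4, under vehicle 25 and 8, under corticosterone 12 and 3, and for the interaction 35 and 5. The summed share was 4.99% of all reads of a column and 8.92% relative to reads in other genes, since the denominator differs by construction.

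Counts over all genes moved more. Without the 8 libraries that stood apart, edgeR called 47 genes for corticosterone averaged over training, 10 in untrained and 15 in trained rats, with fewer samples in the fit. DESeq2 called 180 of 15543, 87 of 16442 and 60 of 14644 genes in that order. The fit of only the groups compared gave 13 of 14433 in trained rats. Leaving out 1 library gave 97 to 154 genes averaged over training. It gave 33 to 62 in untrained rats, lowest at 33 without untrained vehicle 7, untrained vehicle 41 or untrained corticosterone 39, and 34 without untrained corticosterone 29. In trained rats it gave 14 to 27, lowest without trained vehicle 10. No paired fit was made: each library has a sample number of its own, and the labels do not say that neighbouring numbers form sets. The numbers do mostly repeat an order of groups, as in untrained vehicle 2, trained corticosterone 3, untrained corticosterone 4 and trained vehicle 5. Trained corticosterone 40 and untrained vehicle 41 depart from that order. With the sample number as a covariate no member was called, but that covariate takes up a steady drift over the numbers and not differences between sets. Counting error was small beside the spread between libraries; other technical noise was not measured.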
